A study of Mus musculus with 2 samples.

Results

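The genes described here are 7 mouse genes of major histocompatibility complex (MHC) class II antigen presentation: the class II chains H2-Aa, H2-Ab1 and H2-Eb1, the DM subunits H2-DMa and H2-DMb1, the invariant chain Cd74 and the transactivator Ciita. They were taken by gene symbol, with older symbols allowed, from the probe annotation of the arrays. All 7 were measured, by 12 probes on 21 spots, among 16698 genes measured in all. Kidney RNA was hybridised to 2 dual-colour Agilent arrays that each carried both conditions with the dyes swapped. The condition under study was a diet of 0.2% adenine with 2% HMPA, 3-(4-hydroxy-3-methoxyphenyl)propionic acid, and it was set against a diet of 0.2% adenine alone. Male CD-1 mice, an outbred stock, entered the study at 7 weeks of age and were fed either diet, on an AIN-93G base, for 1 week. The titles instead name 12 weeks of age and 5 mice, and leave it unstated if these are the mice of each diet or of both, and if their RNA was pooled. Both conditions carried adenine, which injures the tubules and gives a model of kidney disease, and no kidney of mice fed without adenine was on the arrays. The titles also number the arrays, without saying if each had RNA of its own. Since no label ties an array to animals or an RNA extract of its own, each condition counts as 1 RNA sample measured on 2 arrays, and no p-value is given.

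MHC class II molecules are heterodimers of an alpha and a beta chain that show peptides from endocytosed proteins to CD4+ T cells. They are made mainly by professional antigen-presenting cells, namely dendritic cells, macrophages and B cells, and in kidney also by other cells after stimulation with interferon gamma. The invariant chain occupies the peptide groove on the way to the endosome, where cathepsins trim it, and DM then exchanges its last fragment for other peptides. CIITA binds no DNA itself and switches these genes on through a complex of RFX, CREB-family and NF-Y factors that sits on the X and Y boxes of class II promoters.

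The promoters are shown because the X and Y boxes are what these genes are known to share. Promoter windows of 300 bases, 250 before and 50 after each annotated start, came from RefSeq (GRCm38.p6), and 4 of the 7 genes had one: H2-Aa, H2-Eb1, H2-DMa and H2-DMb1. Each of the 3 stretches below is 72 bases long, in the direction of its gene, with capitals for the matched letters of the Y box (TGATTGG, or CTGATTGG where the base before it is C) and of the X1 box (AACNGATG) or the X2 element (TGACG). H2-Aa lies at chr17:34287852-34287923 on the minus strand, H2-Eb1 at chr17:34305756-34305827 and H2-DMb1 at chr17:34153078-34153149, both on the plus strand.
H2-Aa: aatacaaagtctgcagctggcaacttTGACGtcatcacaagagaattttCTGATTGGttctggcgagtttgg
H2-Eb1: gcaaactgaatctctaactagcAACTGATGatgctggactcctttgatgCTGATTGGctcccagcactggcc
H2-DMb1: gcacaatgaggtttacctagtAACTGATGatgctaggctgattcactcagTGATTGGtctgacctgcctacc

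The Y box letters TGATTGG began 50 bases before the annotated start of H2-Aa, 61 bases before that of H2-Eb1 and 63 bases before that of H2-DMb1. Over 32851 windows of the same length, 7.82% held TGATTGG on either strand, 4.10% held the longer CTGATTGG that contains it, and 37.4% held the inner ATTGG. The X1 letters AACNGATG were in 2.32% of windows and TGACG in 20.8%, both strands counted. Counted up to the start of TGATTGG, H2-Eb1 had 20 bases and H2-DMb1 had 21 bases after the X1 match, and H2-Aa had 19 bases after TGACG. In H2-Aa, TGACG matched both strands at overlapping places. Both X1 and Y letters stood on the gene's own strand, in any order and at any distance, in 13 windows (0.0396%), of 13 genes. Windows with both on the other strand were not counted. Of those genes, 4 code for class II chains: H2-Eb1, H2-DMb1, H2-Eb2 and H2-DMb2. The shorter form TGATTGG was chosen after the windows had been read, since H2-DMb1, H2-DMb2 and H2-Ob held it without the longer one. Neither of the windows of H2-DMa held TGATTGG, and 1 of them held ATTGG. A match describes letters and shows no binding, and the deposited files hold no binding data.

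The related class II genes H2-DMb2, H2-Eb2, H2-Oa and H2-Ob also held TGATTGG, 92, 102, 45 and 59 bases before their starts. Of these, H2-DMb2, at chr17:34145107-34145178, is shown beside H2-Oa, at chr17:34092284-34092355, both on the plus strand, because their signals are set against those of the members further on.
H2-DMb2: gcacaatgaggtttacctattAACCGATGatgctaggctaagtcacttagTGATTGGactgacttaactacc
H2-Oa: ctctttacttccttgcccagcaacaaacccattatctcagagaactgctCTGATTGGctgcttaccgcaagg

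**Figure D1:**
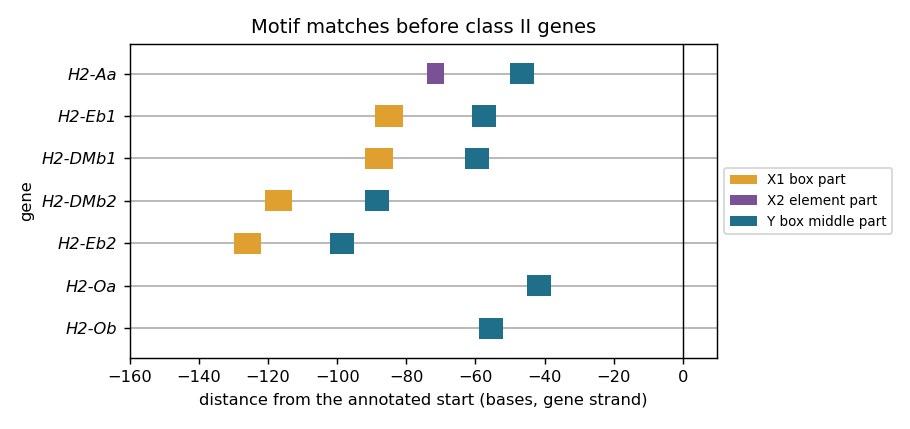
Positions of X1, X2 and Y box letters before 7 class II genes, in bases from the annotated start on the gene's strand (horizontal axis), one row per gene. The Y letters, drawn as TGATTGG, lie 45 to 102 bases before the start in all 7 genes drawn, with X1 letters 20 or 21 bases before them in 4 and X2 letters 19 bases before them in H2-Aa.

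All 7 genes were lower in kidneys of mice given adenine with HMPA than in kidneys of mice given adenine alone, on both arrays. The share of all genes that were lower on both arrays, by any amount, was not computed. Their log2 ratio of HMPA over adenine alone had a median of −1.34, with medians of −1.51 on array 1 and −1.08 on array 2, against −0.04 over all 16698 genes. A gene was counted as lower or higher when its mean ratio over both arrays was at least 2-fold and each array gave at least 1.5-fold the same way, a rule of size and not a test. By it 4 of the 7 were lower and 0 higher, where 7.72% of all genes were lower and 6.64% higher. At a limit of 1.5-fold, with a lower one on each array, all 7 were lower, against 16.2% of all genes. The RNA came from whole kidney, so that fewer cells of a type and less RNA per cell cannot be told apart in any of these values. In what follows, ± is the distance of each array from the mean of both, which covers the arrays and dyes but no animals. Over all genes its median was 0.11. Where values of the conditions are said not to overlap, or genes or probes to lie below 0, the share with the same trait over the whole array was not computed. Such a trait therefore describes a gene or probe and does not set it apart from others.

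**Figure D2:**
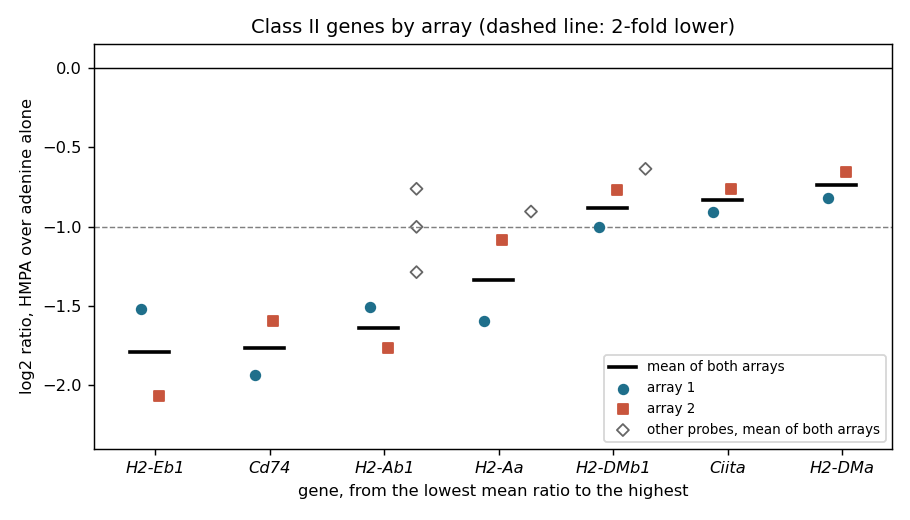
Log2 ratio of HMPA over adenine alone (vertical axis) for the 7 genes (horizontal axis), with circles for array 1, squares for array 2, a bar at their mean and open diamonds for the means of other probes of the same gene. Every value lies below 0, and the means run from −1.79 for H2-Eb1 to −0.74 for H2-DMa. How many of all genes lie below 0 on both arrays was not computed.

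Of the chains that hold the peptide, H2-Eb1, the beta chain of the E molecule, had normalised intensities of 845 and 671 scanner units with HMPA on arrays 1 and 2, against 2421 and 2810 with adenine alone. The values with HMPA lay below both values with adenine alone. The log2 ratio was −1.52 on array 1 and −2.07 on array 2, with a mean of −1.79 ± 0.27, or 3.47-fold lower, and 1.96% of all genes had a mean at or below it. H2-Eb1 rested on 1 probe. The files place it at chr17:34452050-34452511 (mm9), a span of 462 bases for a probe of 60, and describe its target record as an I-A beta chain while naming the gene H2-Eb1.

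H2-Ab1, the beta chain of the A molecule, gave 4908 and 4460 units with HMPA, against 13940 and 15170 with adenine alone, with no overlap. Its ratios of −1.51 and −1.77 averaged −1.64 ± 0.13, a level 3.11-fold lower. H2-Aa, the alpha chain that pairs with it, gave 1009 and 1331 units with HMPA, against 3042 and 2821 with adenine alone, again with no overlap. Its ratios were −1.59 and −1.08, with a mean of −1.34 ± 0.25, or 2.53-fold lower. The chosen probes lay at chr17:34406059-34406118 on the plus strand for H2-Ab1 and at chr17:34420627-34420686 on the minus strand for H2-Aa (mm9). All 3 chains thus met the size rule. Their array values overlapped between H2-Eb1 and each of the others and between H2-Ab1 and H2-Aa.

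Several probes covered the same gene for H2-Ab1 (4 probes, 13 spots), H2-Aa (2) and H2-DMb1 (2), and all 12 probes of the 7 genes were below 0 on both arrays, with means between −1.79 and −0.64. The size of the ratio differed by probe, and 6 of the 12 met the size rule. The sequences below are in lower case with no part marked. They are those of the E beta probe, on which H2-Eb1 rests alone, of both H2-Aa probes, and of the H2-Ab1 probes at bases 196 and 559. The sequences of the H2-Ab1 probes at bases 133 and 888 are not shown.
H2-Eb1 probe at base 720: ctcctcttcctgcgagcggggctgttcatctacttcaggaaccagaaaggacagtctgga
H2-Aa probe at base 506: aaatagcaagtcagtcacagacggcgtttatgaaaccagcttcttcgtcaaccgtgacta
H2-Aa probe at base 279: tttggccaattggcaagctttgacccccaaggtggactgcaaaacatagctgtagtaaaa
H2-Ab1 probe at base 559: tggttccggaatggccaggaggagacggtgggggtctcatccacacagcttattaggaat
H2-Ab1 probe at base 196: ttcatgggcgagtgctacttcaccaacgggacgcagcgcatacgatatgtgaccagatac

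The bases count from the start of each probe's target transcript as the files give it. For H2-Ab1 the ratio was −0.76 ± 0.06 at base 133, −1.002 ± 0.08 at base 196, −1.29 ± 0.22 at base 559 and −1.64 ± 0.13 at base 888, where the first of these lies on a different target record and has no genome position. For H2-Aa it was −0.91 ± 0.28 at base 279 and −1.34 ± 0.25 at base 506. For H2-DMb1 it was −0.64 ± 0.05 at base 619 and −0.89 ± 0.12 at base 1218. Within each of these 3 genes the probe farther along the transcript had the lower mean ratio. The array values overlapped between the H2-Aa probes, between the H2-Ab1 probes at bases 196 and 559, and between those at bases 559 and 888, which both gave −1.51 on array 1. The probe signal moved with the position. With adenine alone the H2-Ab1 probes gave 391 and 373, 701 and 642, 1785 and 1565, and 13940 and 15170 units in the same order of position, while with HMPA they gave 222 and 229, 331 and 339, 628 and 747, and 4908 and 4460. The part of signal, position and cross-hybridisation in these differences was not tested. The ratios that the authors' scanner software had computed, turned the same way, were −0.87, −1.09, −1.32 and −1.50 for the H2-Ab1 probes in that order.

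The H2-Ab1 probe at base 559 was printed 10 times on each array, which shows the error of a spot. On array 1, 7 reliable spots averaged −1.51 with an SD of 0.08 and a range of −1.61 to −1.38. On array 2, 8 reliable spots averaged −1.07 with an SD of 0.14 and a range of −1.25 to −0.85. The spots of array 1 all lay below those of array 2, so for this probe the distance between the arrays was larger than the spread between spots. The H2-DMb1 probe at base 619 also lists the record of the near-identical H2-DMb2, and cannot be assigned to either gene alone. Class II chains are highly polymorphic, the alleles of the CD-1 mice are not given in the sources used here, and the fit of each probe to them was not tested.

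**Figure D3:**
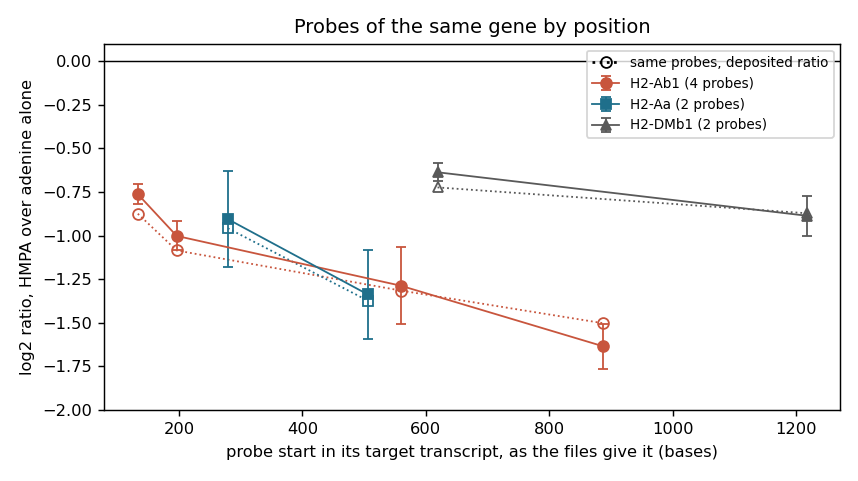
Log2 ratio of HMPA over adenine alone (vertical axis) against the start of each probe in its target transcript in bases (horizontal axis) for H2-Ab1, H2-Aa and H2-DMb1, with filled symbols for the mean, bars reaching to each array's value, and open symbols for the deposited ratio. In H2-Ab1 the ratios run from −0.76 at base 133 to −1.64 at base 888.

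Cd74, the invariant chain that accompanies the dimers to the endosome, had normalised intensities of 5583 and 5887 units with HMPA, against 21370 and 17780 with adenine alone. The values of the conditions did not overlap. Its ratios were −1.94 on array 1 and −1.59 on array 2, with a mean of −1.77 ± 0.17, or 3.40-fold lower, and 2.08% of all genes had a mean at or below it. The 1 probe lay at chr18:60972075-60972132 on the plus strand (mm9). Cd74 and H2-Eb1 differed by less than the distances between arrays.

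The genes for the peptide exchanger DM were also lower, short of the size rule. H2-DMb1, its beta subunit, gave 1871 and 2186 units with HMPA, against 3746 and 3729 with adenine alone, with ratios of −1.002 and −0.77 and a mean of −0.89 ± 0.12, or 1.85-fold lower. H2-DMa, its alpha subunit, gave 269.5 and 279.9 units with HMPA, against 475 and 441 with adenine alone, with ratios of −0.82 and −0.66 and a mean of −0.74 ± 0.08, or 1.67-fold lower. The values of the conditions overlapped for neither gene. The H2-DMb1 probe lay at chr17:34297109-34297168 and the H2-DMa probe at chr17:34274300-34274863, a span of 564 bases for a probe of 60, both on the plus strand (mm9). Of all genes, 9.61% had a mean ratio at or below that of H2-DMb1 and 12.5% at or below that of H2-DMa.

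Ciita, the transactivator of the other 6 genes, gave 229 and 226 units with HMPA, against 429.7 and 383 with adenine alone. The conditions did not overlap. The ratios were −0.91 and −0.76, with a mean of −0.83 ± 0.07, or 1.78-fold lower, which is short of the size rule, and 10.6% of all genes had a mean at or below it. The probe lay at chr16:10526303-10526362 on the plus strand (mm9), and its start at base 3899 of the target places it far along the transcript. It does not tell apart the promoters from which Ciita is known to start in different cell types.

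**Figure D4:**
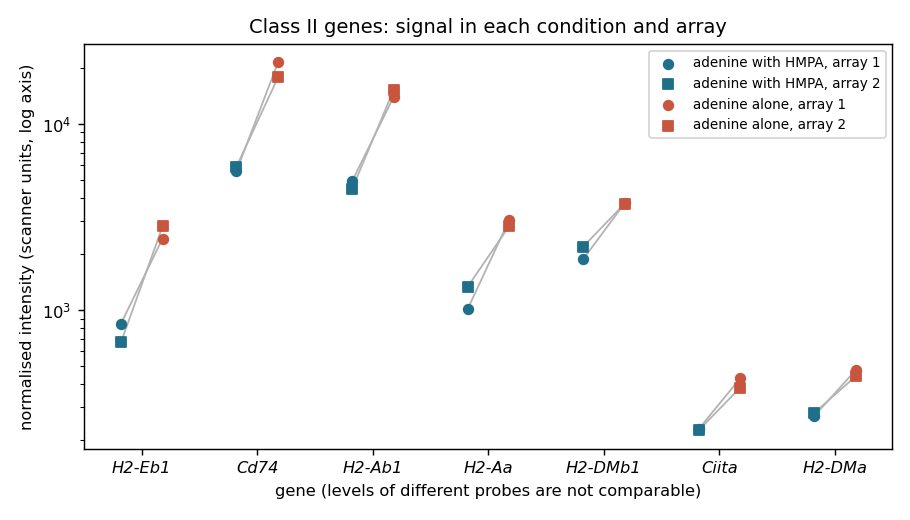
Normalised intensity in scanner units on a log axis (vertical) for the 7 genes (horizontal), with adenine with HMPA left of adenine alone in each gene, circles for array 1, squares for array 2 and lines joining the channels of 1 array. Both HMPA values lie below both values with adenine alone in every gene, for example 5583 and 5887 against 21370 and 17780 for Cd74. How many of all genes share this was not computed.

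From the lowest ratio the order was H2-Eb1, Cd74, H2-Ab1, H2-Aa, H2-DMb1, Ciita and H2-DMa. Neighbours in this order overlapped between arrays except H2-Aa and H2-DMb1. Of the 21 pairs that the 7 genes form, 17 had the same order on both arrays. The chains and Cd74 (median −1.70) were lower than DM and Ciita (median −0.83) on both arrays in 12 of 12 pairs. This gap holds for the brightest probe of each gene and not for all probes, since the H2-Ab1 probes at bases 133 and 196 and the H2-Aa probe at base 279 gave ratios of −0.76, −1.002 and −0.91, within or near those of H2-DMb1 and Ciita. The gap was not tested.

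Of the other class II chains, 3 of 5 were measured, and by the size rule 0 were lower and 0 higher, at a median ratio of −0.38. H2-Ea, the alpha chain that pairs with H2-Eb1, gave 98.5 and 88.2 units with HMPA, against 121 and 168 with adenine alone, a ratio of −0.62 ± 0.32. H2-Oa, a subunit of the DM inhibitor DO, gave 103 and 108 units with HMPA, against 102 and 106 with adenine alone, a ratio of 0.02 ± 0.0036. H2-DMb2, the second DM beta gene, gave 82.2 and 74.1 units with HMPA, against 109 and 94.7 with adenine alone, a ratio of −0.38 ± 0.03 (this gene was singled out after its values were seen). All 3 signals lay near the offset of 50 that was added to every spot, which draws ratios towards 0. H2-Eb2 and H2-Ob were not well above background on both arrays in either condition, and no value is given. With the authors' deposited ratio, which carries no offset, H2-Ea at −1.20 and H2-DMb2 at −1.21 met the size rule.

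Enzymes of the class II compartment were lower in 3 of 8 genes and higher in 0 (median −0.77). Ctss, the cathepsin that trims the invariant chain in dendritic cells, macrophages and B cells, had 4335 and 2822 units with HMPA, against 26850 and 30850 with adenine alone, a ratio of −3.04 ± 0.41 or 8.23-fold lower. Ctsd, an aspartic protease of lysosomes, was at −1.47 ± 0.22. Ctsl, the cathepsin that does this trimming in thymic epithelium, was at −1.25 ± 0.20, and at −0.97, short of the rule, with the deposited ratio. Among the 5 that did not meet the rule, Lgmn was at 0.34 and Ctsh at 0.08, both above 0 (named after their values were seen). Lysosomal enzymes are also made by tubule cells, so this list is not particular to antigen-presenting cells.

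The DNA-binding and coactivator genes that act with Ciita met the rule in 0 of 10 in either direction, with a median of −0.24 and values from −0.83 to 0.89. The brightest, Nfyb, a subunit of the Y box factor NF-Y, was at −0.59 ± 0.25, and Crebbp, a histone acetyltransferase, was at −0.38 ± 0.01. On the interferon gamma route to Ciita, 2 of 8 measured genes were lower and 0 higher (median −0.72). Ifngr1, the ligand-binding receptor chain, had 2588 and 2738 units with HMPA, against 9783 and 8182 with adenine alone, a ratio of −1.75 ± 0.17. Ifngr2, the partner chain, had 942 and 987 units with HMPA, against 2576 and 2858 with adenine alone, a ratio of −1.49 ± 0.04. Ifng itself was not well above background on both arrays in either condition. Irf1, a transcription factor of this route, was at −0.77 ± 0.25 (named after its values were seen).

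Of genes for class II turnover and costimulation, 2 of 7 measured were lower and 0 higher (median −0.77), and 5 were lower with the deposited ratio. Cd83, which keeps class II on the surface of mature dendritic cells, had 277 and 288 units with HMPA, against 905 and 941 with adenine alone, a ratio of −1.71 ± 0.0018. Sting1, the adaptor of cytosolic DNA sensing, was at −2.06 ± 0.14. The T cell side of recognition gave 0 lower and 0 higher of 7 measured genes, with a median of −0.29, and its brightest genes were Cd3d at −0.60 ± 0.05 and Lck at −0.61 ± 0.22. Cd4, the coreceptor for class II, had 66.9 and 65.3 units with HMPA, against 61.7 and 63.1 with adenine alone, a ratio of 0.08 ± 0.03 near the offset (named after its values were seen). Class I presentation, the route for peptides from the cytosol, gave 2 lower and 0 higher of 12 measured genes, with a median of −0.70. H2-K1, a class I heavy chain, was at −1.34 ± 0.02 and Psmb8, an immunoproteasome subunit, at −1.25 ± 0.05. Averaged over all its probes, H2-K1 was at −0.88, short of the rule.

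**Figure D5:**
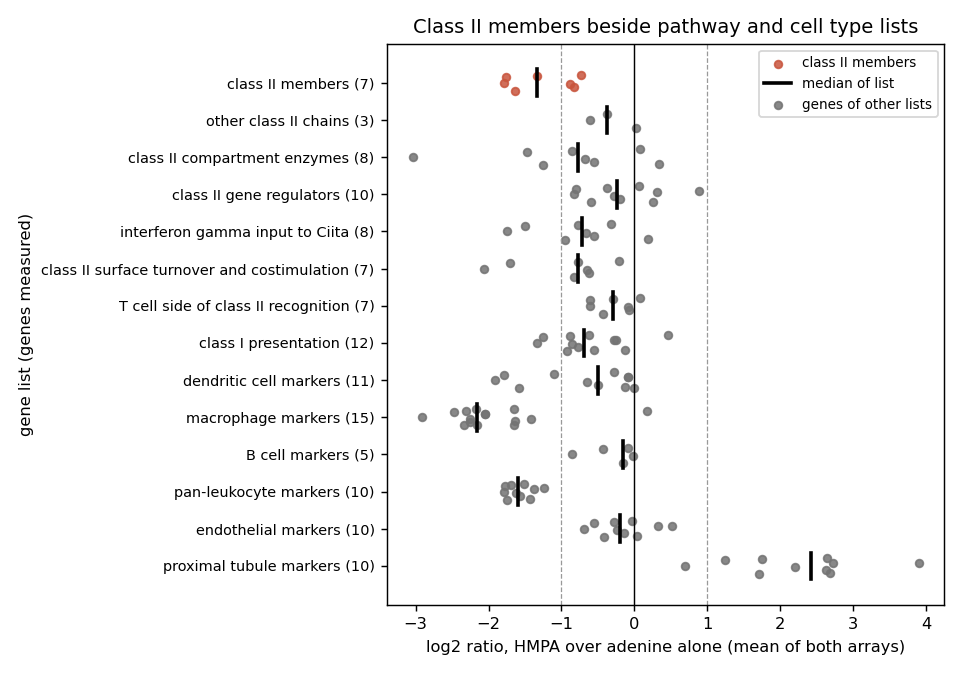
Mean log2 ratio of HMPA over adenine alone (horizontal axis) for each measured gene of the 7 class II genes and of 13 pathway and cell type lists (rows, number measured in brackets), with a bar at each median and dashed lines at 2-fold. The class II median of −1.34 lies between those of the macrophage list (−2.16) and the B cell list (−0.16), and the proximal tubule list stands at 2.41.

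Of the markers of cells that can carry class II, those of macrophages and of leukocytes in general were lower in most genes, while few dendritic cell markers and no B cell marker met the size rule. Of 15 macrophage markers, 14 were lower and 0 higher (median −2.16), and their summed intensity was 17950 and 16220 units with HMPA, against 101200 and 97210 with adenine alone. Of these sums, the Lyz2 probe alone gave 8362 and 7145 units with HMPA, against 58840 and 57630 with adenine alone. The largest differences were in Lyz2, a lysozyme, at −2.91 ± 0.10, C1qc, a complement C1q chain, at −2.47 ± 0.08, and Mrc1, the mannose receptor, at −2.34 ± 0.26. Mertk, at 0.17, was the 1 marker that did not meet the rule. All 10 pan-leukocyte markers were lower, with a median of −1.60 and sums of 6080 and 6203 units with HMPA, against 19570 and 18630 with adenine alone. They included Coro1a, an actin-binding protein, at −1.79 ± 0.21, Cd52 at −1.78 ± 0.03 and the tetraspanin Cd53 at −1.75 ± 0.24.

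Of 14 dendritic cell markers, 11 were measured, and 4 were lower and 0 higher (median −0.50), with sums of 5727 and 5248 units with HMPA, against 17040 and 15630 with adenine alone. Most of these sums came from Cd24a, with 3128 and 2828 units with HMPA, against 11230 and 9340 with adenine alone. Clec10a, a lectin that macrophages also carry, was at −1.91 ± 0.11, Cd24a, which tubule cells also make, at −1.78 ± 0.06, and Itgax, the integrin CD11c, at −1.58 ± 0.29, or at −0.84 over all its probes. Irf8 also met the rule, at −1.11 ± 0.13. The defining markers Flt3, Clec9a and Cd209a did not pass the filter on dim probes in either condition. Xcr1 was at −0.01, Zbtb46 at −0.50 and Batf3 at −0.65, short of the rule. Irf8, Xcr1, Zbtb46 and Batf3 were named after their values were seen. Of 10 B cell markers, 5 were measured, with 0 lower and 0 higher (median −0.16) and sums of 433 and 452 units with HMPA, against 610.3 and 608 with adenine alone. The brightest was Cd79b, a part of the B cell receptor, at −0.85 ± 0.08, while Cd79a and Pax5 did not pass the filter on dim probes in either condition. With the deposited ratio Cd79b was at −1.06 and met the size rule.

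Endothelial markers were lower in 0 and higher in 0 of 10 (median −0.19), with sums of 12370 and 13490 units with HMPA, against 16170 and 15210 with adenine alone. The brightest, Emcn and Plvap, were at −0.55 ± 0.14 and −0.42 ± 0.05. Proximal tubule markers ran the other way: 9 of 10 were higher and 0 lower (median 2.41), with sums of 266700 and 266400 units with HMPA, against 34010 and 48400 with adenine alone. Kap, an androgen-regulated protein, was at 3.90 ± 0.11, Lrp2, the endocytic receptor megalin, at 2.73 ± 0.07, and Slc34a1, a phosphate transporter, at 2.68 ± 0.77. All 10, which define the labelled tissue, were well above background in both conditions. The part of the shift between leukocyte and tubule RNA in the class II values was not tested.

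Among all genes of these lists, the ones whose ratios on both arrays lay nearest to the medians of the 7 class II genes were Ctsl (−1.46 and −1.05, distance 0.06), Ptprc, the leukocyte common antigen CD45 (−1.42 and −1.07, distance 0.09), and Csf1r, the receptor for macrophage colony-stimulating factor (−1.59 and −1.23, distance 0.17). Distance is Euclidean on the log2 scale over the 2 arrays, a measure over 2 points that are counted as the same RNA. Averaged over all their probes, Ptprc was at −0.54 and Csf1r at −0.79.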

How the data were processed

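The deposited scanner files hold, per the file headers, each spot's mean intensity and median local background intensity in green and red, without normalization, and the log10 ratio of red over green that the authors' software computed after subtracting background and normalising the dyes. The deposited value table gives this log10 ratio again, within 0.00498 on array 1 and 0.00499 on array 2, with column medians of 0 and not turned for the dye swap. Feature Extraction is version 12.2.0.7 per the file headers and 9.5 per the submitters' processing notes. Adenine alone was green on array 1 and red on array 2, and both arrays lay on 1 slide.

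Of 45018 spots per array, 1639 were controls and 43379 measured genes, with 281 and 297 of these marked unreliable and 0 saturated. In green 60.9% and 61.2% of spots, and in red 57.9% and 67.9%, were well above background, and the number of arrays limits the precision. With limma 3.58.1 in R 4.3.3, background was corrected by normexp (offset 50) and ratios by loess, with a weight of 0 for control and unreliable spots, and turned to HMPA over adenine alone. Normalised intensities per channel came from Aquantile after loess. Spots of 1 probe were averaged, without the unreliable ones. A probe was kept if 1 condition stood well above background on each of the arrays (25226 of 41174), and a gene took its kept probe of highest mean signal. Names came from a RefSeq table by accession for 21442 kept probes and by symbol for 1942, by an older symbol for 8, and from the file for 1834. With red over green as the contrast, 0 genes were lower and 0 higher by the size rule. Figures and counts used Python 3.11.15. The calculation was tested on simulated data.

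The 7 genes, the lists and the size rule were chosen with earlier results of these data known. Named from each list were up to 4 genes that met the rule (3 for markers), largest first, or the 2 brightest where none did, and from all lists the 3 nearest to the medians of the 7 genes. Alternatives were an offset of 10, no background correction, the deposited ratio, median centring, the mean over all probes, no filter, a filter on all 4 channels, each array alone and the size rule at 1.5-fold.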

Additional observations from a re-analysis of the deposited data

How the results depend on the processing

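All 7 class II genes stayed below 0 under the 9 alternative calculations run, in 63 of 63 values between −2.07 and −0.66, and 40 of these 63 met the size rule. Not all of these values are separate checks. Both changes of the filter left every class II value as it was, and each array alone repeats the array ratios given above. The median of the 7 genes lay between −1.55 (median centring) and −1.08 (array 2 alone). With median centring in place of loess, 7 of the 7 met the size rule as lower, with H2-DMa at −1.07, H2-DMb1 at −1.06 and Ciita at −1.17. Median centring counted 1973 of all genes as lower and 749 as higher, so that 27.5% and not 46.2% of the counted genes were higher. It also moved the median of all genes to −0.22, against −0.04 with loess, and relative to that median the 7 genes had a median of −1.33, against −1.30 with loess. The deposited ratio counted 2461 of all genes as lower and 2043 as higher. The limit of 1.5-fold counted 7 of the 7 genes and 2699 of all genes as lower. With 1 array left out, the number of class II genes lower was 4 to 5, H2-DMb1 meeting the rule on array 1 alone, the median was −1.51 to −1.08, 1283 to 1487 of all genes were lower and 1154 to 1254 higher. The mean over all probes gave a median of −1.12 and H2-Ab1 at −1.17. Irf8 and Batf3 are not among the named genes counted next. Of 42 named genes of the lists, 0 that met the rule changed sign, and 12 of 377 values changed sides of the rule: Cd79b was counted as lower under 4 alternatives, from −1.18 to −1.01, H2-Ea (−1.20) and H2-DMb2 (−1.21) with the deposited ratio, which left out Ctsl (−0.97), Irf1 (−1.03) on array 1 alone, and H2-K1 (−0.88), Itgax (−0.84), Ptprc (−0.54) and Csf1r (−0.79) fell short with the mean over probes. Among the lists, the genes lower numbered 2 of the regulators with median centring, against 0 with loess, 4 to 5 of those of turnover and costimulation under 3 alternatives, against 2, 1 to 4 of those of class I presentation, against 2, and 2 (mean over probes) to 6 (deposited ratio) of the dendritic cell markers, against 4. The cause was not tested. The slide could not be used as a block, since both arrays lay on 1 slide. No paired analysis was run because the arrays were counted as 1 RNA sample per condition, which the labels do not settle.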
